A study of Mus musculus with 10 samples.

Results

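The genes described are 46 mouse genes of the unfolded protein response, of protein folding in the endoplasmic reticulum (ER) and of ER-associated degradation (ERAD). They were chosen by name from the 35275 genes of the deposited table as the sensors and targets of the unfolded protein response, the ER chaperones, and the ERAD components outside the membralin complex. Expression was measured by RNA sequencing of motor cortex from C57BL/6 mice at postnatal day 22, in 5 KO and 5 WT mice. KO mice carried a conditional knockout of membralin in astrocytes. Membralin is an ER membrane protein encoded by Tmem259 and known as a component of an ERAD ubiquitin ligase complex. WT mice were labelled wild type. The sources used here give neither the Cre driver nor whether the WT mice carried a floxed allele. Values are FPKM, fragments scaled to gene length and library size, so levels can be set side by side between genes.

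When unfolded protein builds up in the ER, the sensors IRE1 (Ern1), PERK (Eif2ak3) and ATF6 are activated. PERK phosphorylates the initiation factor eIF2, which lowers general translation and raises translation of the transcription factor ATF4. ATF4 is also raised by other eIF2 kinases, a response known as the integrated stress response, and it drives Atf3, Ddit3, Trib3, Chac1 and Asns. ATF6 and the spliced form of XBP1 drive chaperone genes such as Hspa5. ERAD recognises misfolded proteins, moves them across the ER membrane, marks them with ubiquitin and extracts them for the proteasome.

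In KO cortex, the stress-induced genes Atf3 and Asns and the ERAD genes Erlin1, Erlin2 and Derl1 were higher than in WT cortex. Hspa5, the main ER chaperone, averaged 84.5 FPKM in KO and 92.7 FPKM in WT and was not called. Of the 46 genes, 45 passed the filter of a mean of at least 0.5 FPKM over the 10 libraries, and Trib3 did not. A gene was called at an adjusted p under 0.05 in limma with Benjamini-Hochberg adjustment over all 14497 genes tested. Of the 45, 5 were called higher in KO, namely Erlin1, Atf3, Asns, Derl1 and Erlin2, and 0 lower. That is 11.1%, against 9.77% of all tested genes called higher in KO and 3.51% called lower (13.3% in all), so the share called among the ER genes was near the background. Atf3 is counted among the 5 although it passed the filter only through KO, with a WT mean of 0.250 FPKM. Without the filter its adjusted p was 0.0501 in limma. At an unadjusted p under 0.05, 15 of the 45 (33.3%) were higher and 0 lower, against 25.1% and 7.75% of all tested genes. The median log2 fold change, KO over WT on log2(FPKM + 1), was 0.10 over the 45 genes and 0.08 over all tested genes. It was above 0 in 37 of the 45 (82.2%) and in 69.5% of all tested genes. With median-of-ratios scaling, the median over all tested genes was −0.0023 and that of the 45 was 0.02. The same scaling moved the share of higher calls among all calls to 39.2%, against 73.6% without it, and it called 2 of the 45, Erlin1 and Atf3, both higher in KO, against 4.19% of all tested genes called higher and 6.52% called lower.

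KO1, KO2 and KO4 held less Tmem259 RNA than every WT library, while KO3 and KO5 did not. Leaving out KO3 changed the counts of called genes, and whether its label is right was not tested. Tmem259 was at 20.1, 18.5, 34.4, 16.9 and 26.2 FPKM in KO1 to KO5, against 25.5, 23.8, 25.0, 32.4 and 30.4 FPKM in WT1 to WT5. KO3 held the highest Tmem259 level of the 10 libraries, and the groups overlapped (log2 fold change −0.27, SE 0.16, adjusted p = 0.275 in limma). Without KO3 the log2 fold change was −0.42 (adjusted p = 0.0279 in limma). Cells other than astrocytes in a bulk library can also hold Tmem259 RNA. Directions below include KO3 unless stated otherwise. Without KO3, 14 of the 45 genes (31.1%) were called higher in KO and 0 lower, against 19.6% and 6.36% of all genes tested. KO3 was the lowest KO library for 22 of the 46 genes, and the share over all tested genes was not counted. In 12 of the 45 genes (26.7%), at least 4 of the 5 KO libraries lay above every WT library, against 21.5% of all tested genes. The count also rested on other libraries: without KO2, KO4 or WT1, 0 of the 45 were called in limma, with 13, 8 and 12 at an unadjusted p under 0.05, and 2 of all tested genes were called in each case.

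Other cell markers moved with genotype. Cortical neuron markers marked the tissue in every library, with a summed level of 1168 to 1328 FPKM in KO and 1112 to 1310 FPKM in WT. Reactive astrocyte genes summed to 139 to 824 FPKM in KO, lowest in KO3, and to 106 to 145 FPKM in WT, with 7 of 9 tested genes higher in KO. Microglial genes summed to 206 to 338 FPKM in KO, again lowest in KO3, and to 161 to 207 FPKM in WT, with 7 of 12 higher. Olfactory bulb genes summed to 25.8 to 82.4 FPKM in KO and to 7.64 to 40.5 FPKM in WT, with 3 of 10 higher. Plasma and B cell genes, from cells rich in ER chaperones, summed to 6.01 to 11.0 FPKM in KO and to 5.27 to 7.83 FPKM in WT. Nearly all of that sum was Ighm, at a mean of 8.07 FPKM in KO and 6.41 FPKM in WT. It was the only 1 of these 6 genes to pass the filter. Oligodendrocyte genes summed to 1099.5 to 1641 FPKM in KO, highest in KO3, and to 1448 to 1812 FPKM in WT, with a median log2 fold change of −0.30. Of these 5 genes 0 were called lower with KO3 and 5 without it, in limma. The part of glia in the results below was not tested. With the bulb level as a covariate, 0 of the 45 genes and 0 of all genes were called in limma, with 6 and 2569 (17.7% of all) at an unadjusted p under 0.05. With that covariate and without KO3, Erlin1, Erlin2, Derl1, Atf3 and Asns were called, at adjusted p between 0.0234 and 0.0477 in limma, all higher in KO, against 5.79% of all genes tested. The libraries also fell into sets that the labels do not name, alike in both genotypes: KO4, KO5, WT4 and WT5 held RNA of the Y-linked gene Ddx3y, and the others held Xist. With that split as a term in limma, Erlin1, Erlin2, Derl1, Atf3 and Asns were called and 0 other of the 45 genes. KO minus WT on log2(FPKM + 1), these 5 genes were at 0.33 to 0.97 within the Ddx3y libraries (2 KO and 2 WT) and at 0.17 to 0.60 within the others (3 KO and 3 WT). In bulk tissue, a change in the number of cells of a type and a change in RNA per cell cannot be told apart.

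**Figure D1:**
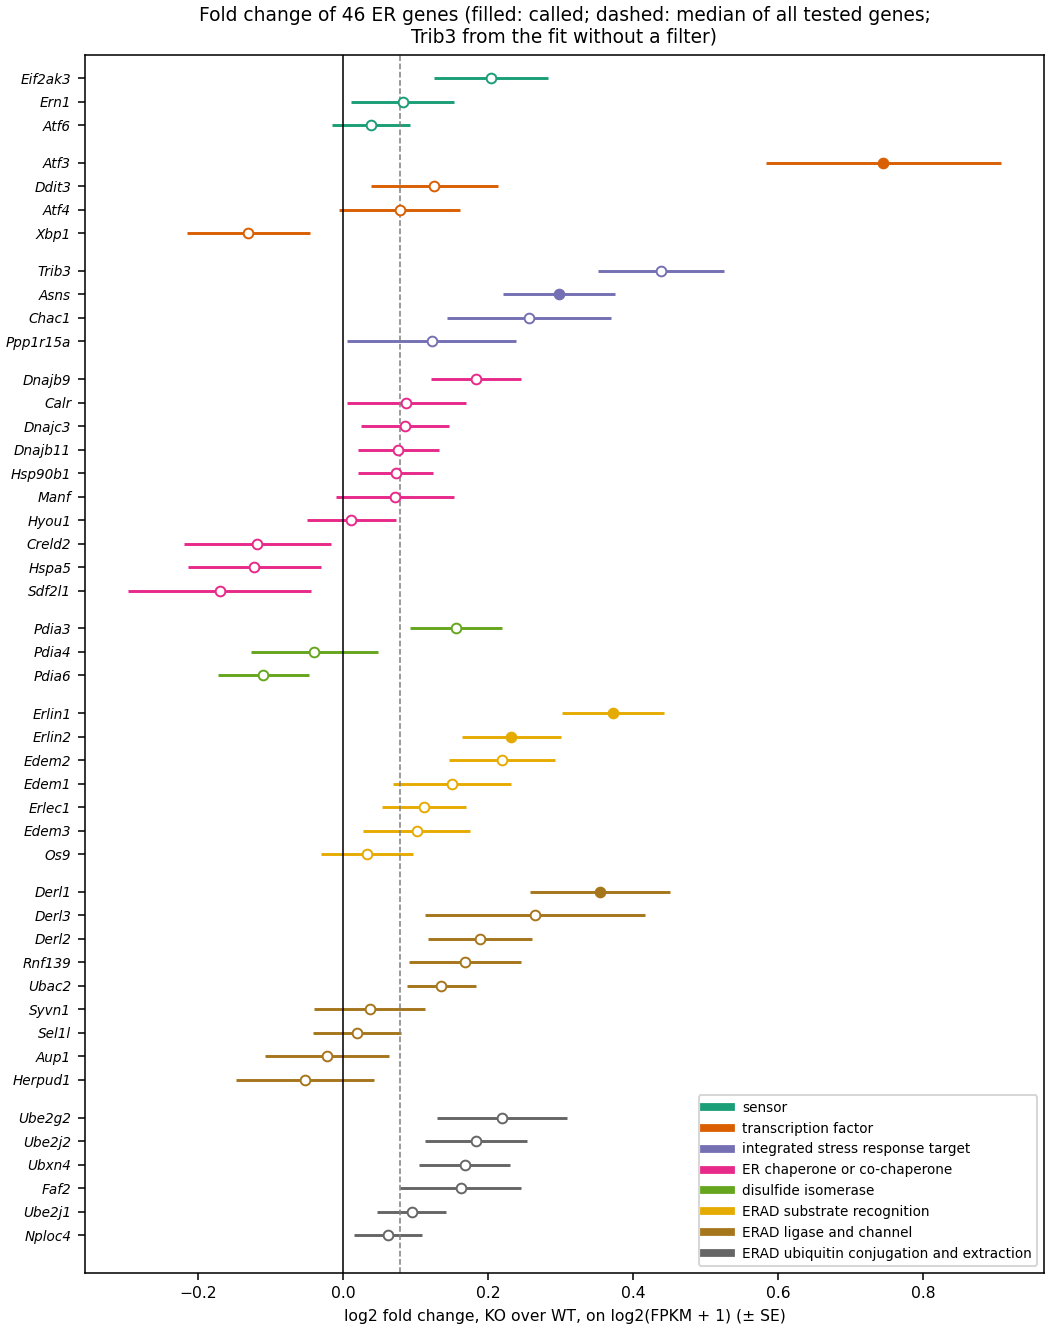
Log2 fold change, KO over WT on log2(FPKM + 1), of the 46 genes grouped by role. Points are estimates, bars are ± SE (5 KO and 5 WT), filled points were called, and the dashed line is the median of all tested genes at 0.08. Atf3 lies farthest to the right at 0.75, and Trib3 comes from a fit without the filter. The chaperones lie around the dashed line or below 0, except Dnajb9, which lies above the line at 0.18.

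The PERK sensor had the largest log2 fold change of the sensors. Eif2ak3 was at 8.32, 7.77, 6.42, 7.72 and 6.36 FPKM in KO1 to KO5, against 5.73, 6.63, 6.48, 6.42 and 5.73 FPKM in WT1 to WT5. KO1, KO2 and KO4 lay above every WT library, while KO3 and KO5 lay within the WT range (log2 fold change 0.20, SE 0.08, adjusted p = 0.0947; adjusted p = 0.0382 without KO3, in limma). Ern1, which encodes the kinase and nuclease that splices Xbp1 mRNA, was at 1.95, 1.72, 1.88, 1.98 and 2.19 FPKM in KO, against 2.01, 1.80, 1.64, 1.85 and 1.62 FPKM in WT. Atf6 was at 18.8, 17.0, 16.1, 16.7 and 16.9 FPKM in KO, against 18.0, 16.6, 16.2, 16.4 and 16.0 FPKM in WT. The groups overlapped for both (log2 fold changes 0.08 and 0.04, adjusted p = 0.447 and 0.655 in limma), and Atf6 turned to −0.06 with median-of-ratios scaling. RNA levels of the sensors say nothing of their activation, which is a change of the proteins.

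Among the transcription factors, Atf3 rose and the others did not pass the test. Atf3, a transcription factor induced by ATF4 and by many other stresses, was at 1.02, 1.36, 0.413, 1.87 and 1.03 FPKM in KO1 to KO5, against 0.182, 0.332, 0.243, 0.431 and 0.0616 FPKM in WT1 to WT5. KO1, KO2, KO4 and KO5 lay above every WT library, and KO3 lay just under WT4. The mean was 1.14 ± 0.532 FPKM in KO and 0.250 ± 0.141 FPKM in WT (SD, n = 5 each), a 4.56-fold ratio of means. The log2 fold change was 0.75 (SE 0.16, adjusted p = 0.0206 in limma; exact permutation p = 0.0159). Without KO2, KO4 or WT1, its adjusted p was 0.0541, 0.0564 or 0.0555 in limma. Atf3 passed the filter only through KO, the WT mean being under 0.5 FPKM, and without the filter its adjusted p was 0.0501 in limma. It rested on few fragments, 19 to 90 per KO library and 3 to 23 per WT library.

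Atf4 and Ddit3 (CHOP) showed no such gap. Atf4 was at 23.5, 21.6, 23.9, 24.7 and 25.4 FPKM in KO, against 20.0, 19.4, 23.0, 23.7 and 27.1 FPKM in WT. ATF4 is raised largely through translation, which RNA levels do not measure. Ddit3, a factor that promotes cell death under lasting stress, was at 14.8, 15.4, 12.6, 16.9 and 13.0 FPKM in KO, against 11.6, 13.3, 12.6, 13.0 and 15.5 FPKM in WT. The 95% interval of the log2 fold change ran from −0.10 to 0.26 for Atf4 and from −0.07 to 0.32 for Ddit3, with adjusted p = 0.545 and 0.341 in limma, and Atf4 turned to −0.02 with median-of-ratios scaling. Ddit3 overlaps Mars on the opposite strand, and their reads cannot be told apart without strand. Xbp1 was at 33.9, 28.2, 33.9, 29.5 and 27.5 FPKM in KO, against 29.8, 34.3, 30.9, 33.6 and 39.7 FPKM in WT. Its mean was lower in KO, with overlap (log2 fold change −0.13, adjusted p = 0.300 in limma). With median-of-ratios scaling and without KO3, a setting chosen after seeing the data, Xbp1 and Pdia6 were called lower in KO. Of the 14522 genes tested in that setting, 1660 were called lower and 1289 higher. Gene-level FPKM does not separate the spliced form of Xbp1.

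Of the 4 integrated stress response targets, Asns was called higher in KO, Trib3 was higher in every KO library, and Chac1 and Ppp1r15a did not pass. Asns, asparagine synthetase, was at 36.7, 35.5, 32.7, 41.4 and 44.3 FPKM in KO1 to KO5, against 28.8, 30.7, 32.9, 31.3 and 29.7 FPKM in WT1 to WT5. All KO libraries but KO3 lay above every WT library (log2 fold change 0.30, SE 0.08, adjusted p = 0.0309 in limma; exact permutation p = 0.0159). Its mean was 38.1 ± 4.69 FPKM in KO and 30.7 ± 1.57 FPKM in WT (SD, n = 5 each). The call was lost without KO1, KO2, KO4, KO5, WT1, WT2 or WT5, at adjusted p between 0.0539 and 0.0846 in limma.

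Trib3, a pseudokinase induced by ATF4 and CHOP, was at 0.627, 0.537, 0.213, 0.731 and 0.537 FPKM in KO1 to KO5, against 0.125, 0.188, 0.130, 0.147 and 0.0201 FPKM in WT1 to WT5. All 5 KO values were above all WT values, KO3 included (exact permutation p = 0.00794, the smallest that 5 against 5 libraries can give). The ratio of means was 4.34. Trib3 had 10 to 36 fragments per KO library and 1 to 11 per WT library, and entered a test across genes only without the filter. That fit covered 25406 genes, called 1.37% of them higher in KO, and gave Trib3 a log2 fold change of 0.44 (SE 0.09, adjusted p = 0.0483 in limma). Leaving out any library but KO3 ended that call, at adjusted p between 0.0713 and 0.122.

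Chac1, an enzyme that degrades glutathione, was at 3.35, 3.03, 3.66, 4.17 and 4.34 FPKM in KO, against 2.34, 3.09, 3.30, 3.72 and 2.34 FPKM in WT. The groups overlapped, with a log2 fold change of 0.26 (adjusted p = 0.140 in limma; exact permutation p = 0.103). Ppp1r15a (GADD34), the phosphatase subunit that reverses eIF2 phosphorylation, had a log2 fold change of 0.12 (adjusted p = 0.493 in limma).

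**Figure D2:**
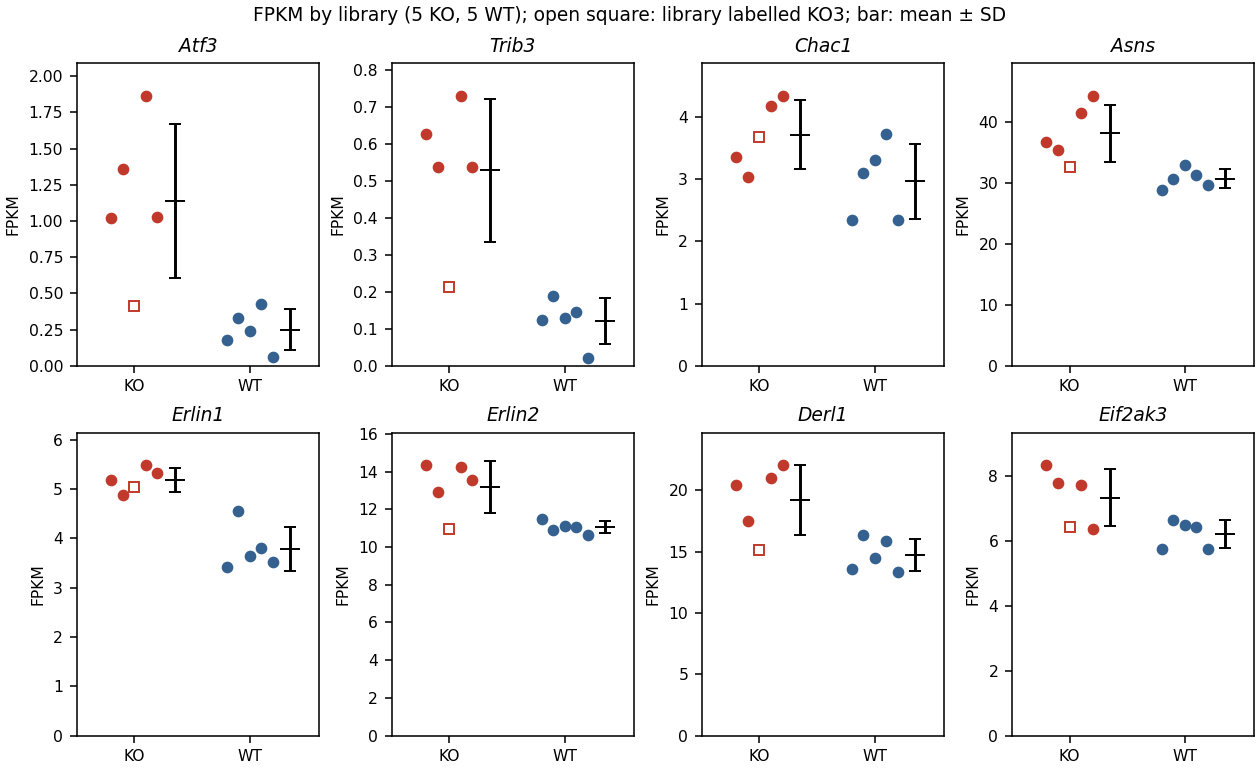
FPKM by library of Atf3, Trib3, Chac1, Asns, Erlin1, Erlin2, Derl1 and Eif2ak3, with 5 KO on the left of 5 WT in each panel. Dots are libraries, the open square is the library labelled KO3, and bars are mean ± SD. All KO values of Trib3 and Erlin1 lie above all WT values, and KO3 lies within or next to the WT range for Atf3, Asns, Erlin2, Derl1 and Eif2ak3.

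The promoters of Asns, Atf3, Chac1 and Trib3 share a motif, while those of Ppp1r15a and Ddit3 do not hold it in the window searched. RefSeq promoters, from 250 bases before to 50 after the start, were matched for 37 of the 46 genes and searched on both strands. The C/EBP-ATF composite element (CARE), written TGATGNAA, is the kind of site through which ATF4 is known to act. It was found in 16.2% of the matched genes (6 of 37) and in 3.91% of 32544 RefSeq promoters. A gene was counted if any of its promoters matched, whereas promoters were counted as single sequences. The genes were chosen by what is known of them, so the higher share is a description only. The 6 windows follow, from GRCm38.p6, 5′ to 3′ on the strand named, with the motif in capitals, to show the letters these 4 genes share beside Herpud1 and Faf2.
Asns, chr6:7693214-7693243, minus strand: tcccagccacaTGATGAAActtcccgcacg
Atf3, chr1:191183425-191183454, plus strand: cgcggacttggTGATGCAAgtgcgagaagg
Chac1, chr2:119351038-119351067, minus strand: cctggcaggagTGATGCAAcggcagggaag
Trib3, chr2:152344028-152344057, plus strand: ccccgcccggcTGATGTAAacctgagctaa
Herpud1, chr8:94386306-94386335, minus strand: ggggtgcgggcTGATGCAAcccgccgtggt
Faf2, chr13:54621590-54621619, minus strand: agatctaaaatTGATGAAAagatgacagac
Counted from the start, the motif lay at −23 to −16 in Asns, at −110 to −103 in Atf3 and at 15 to 22 in Trib3. Of the 5 genes with this motif that passed the filter, 2 were called higher in KO, Asns and Atf3, against 9.77% of all tested genes. Atf3 passed the filter only through KO. The median log2 fold change of the 5 was 0.26, against 0.08 over all tested genes. Herpud1, which also holds the motif, had a log2 fold change of −0.05. A match describes the letters and is not evidence of binding.

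The 10 chaperones and co-chaperones did not move together. None was called in limma, 1 had an unadjusted p under 0.05, and the median log2 fold change was 0.07, against 0.08 over all tested genes. Hspa5 (BiP), the main ER chaperone and the usual marker of the unfolded protein response, was at 84.5, 85.0, 90.7, 85.1 and 76.9 FPKM in KO1 to KO5, against 74.9, 94.7, 98.1, 84.9 and 111 FPKM in WT1 to WT5. The KO libraries lay within the WT range. Its mean was 84.5 ± 4.93 FPKM in KO and 92.7 ± 13.6 FPKM in WT (SD, n = 5 each), with a log2 fold change of −0.12 (adjusted p = 0.371 in limma; exact permutation p = 0.278). The 95% interval ran from −0.32 to 0.08 on the log2 scale. Without WT5 the log2 fold change was −0.06.

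Hsp90b1 (GRP94), the ER form of HSP90, was at 58.7, 61.6, 63.0, 61.0 and 63.3 FPKM in KO, against 55.6, 59.2, 64.7, 57.0 and 56.1 FPKM in WT. Calr, a chaperone of glycoproteins and the most abundant of the 46 genes, was at 139, 132, 153, 149 and 155 FPKM in KO, against 118, 143, 161, 139 and 127 FPKM in WT. Both overlapped between groups, with log2 fold changes of 0.07 and 0.09 (95% intervals −0.04 to 0.19 and −0.09 to 0.27), which turned to −0.02 and −0.01 with median-of-ratios scaling. Dnajb9 (ERdj4), a co-chaperone of BiP induced through IRE1 and XBP1, was at 16.6, 16.4, 15.2, 18.6 and 15.7 FPKM in KO, against 13.7, 13.6, 14.3, 14.6 and 15.9 FPKM in WT. KO1, KO2 and KO4 lay above every WT library (log2 fold change 0.18, SE 0.06, adjusted p = 0.0682; adjusted p = 0.0322 without KO3, in limma). Sdf2l1, which works with BiP, was at 11.0, 10.1, 10.7, 12.1 and 9.23 FPKM in KO, against 9.92, 10.5, 11.8, 11.6 and 17.6 FPKM in WT (log2 fold change −0.17, adjusted p = 0.368 in limma). Creld2, Dnajc3, Dnajb11, Hyou1 and Manf had log2 fold changes between −0.12 and 0.08, and none was called.

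**Figure D3:**
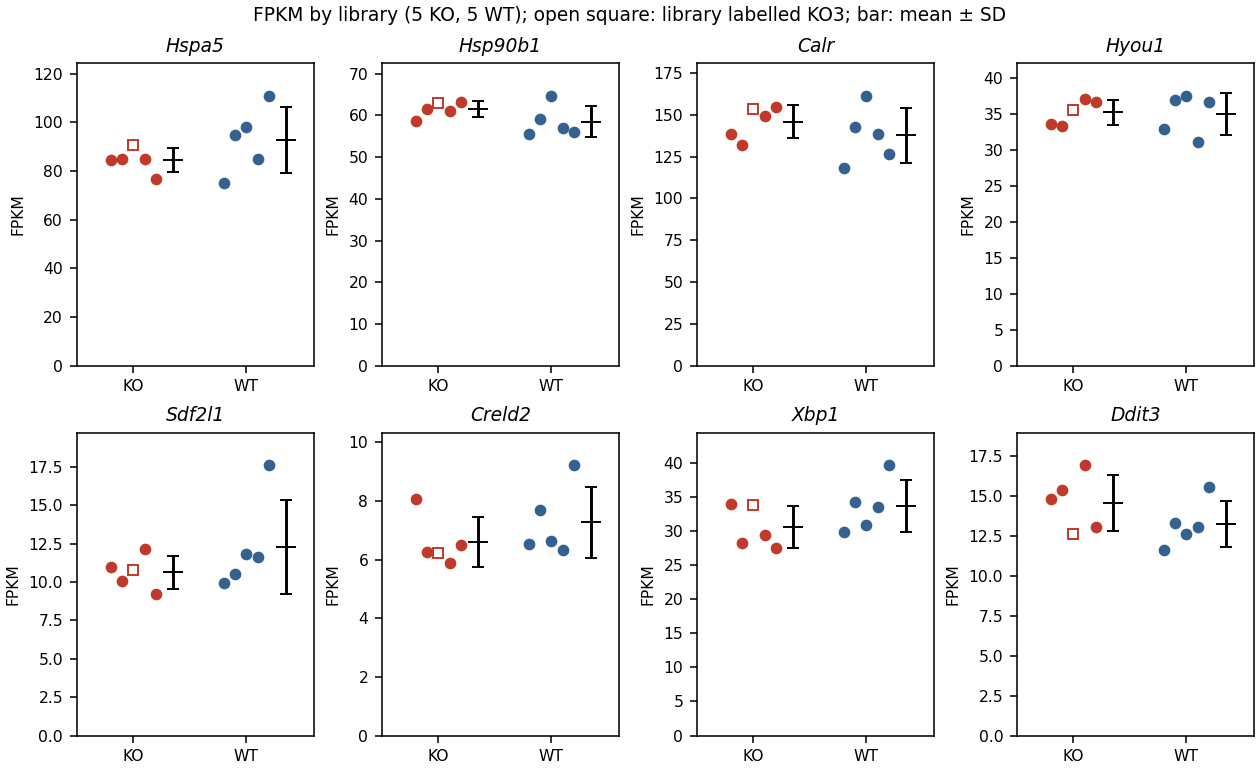
FPKM by library of Hspa5, Hsp90b1, Calr, Hyou1, Sdf2l1, Creld2, Xbp1 and Ddit3, with 5 KO on the left of 5 WT in each panel. Dots are libraries, the open square is the library labelled KO3, and bars are mean ± SD. The groups overlap in every panel, and WT5 is the highest library for Hspa5 (111 FPKM), Sdf2l1 (17.6 FPKM), Creld2 (9.22 FPKM) and Xbp1 (39.7 FPKM).

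None of the 3 disulfide isomerases among the 46 genes, Pdia3, Pdia4 and Pdia6, was called in limma, with 1 at an unadjusted p under 0.05. Such enzymes form and rearrange disulfide bonds. Pdia3 (ERp57) was at 65.7, 61.3, 58.5, 64.5 and 62.4 FPKM in KO, against 50.4, 59.2, 61.5, 57.8 and 51.7 FPKM in WT, with a log2 fold change of 0.16 (adjusted p = 0.110 in limma). Pdia6 was at 37.3, 34.8, 40.0, 36.8 and 38.1 FPKM in KO, against 35.4, 42.1, 42.5, 38.9 and 43.6 FPKM in WT, with a log2 fold change of −0.11 (adjusted p = 0.241 in limma). The groups overlapped for both. Pdia4 had a log2 fold change of −0.04.

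The ER stress element (ERSE), written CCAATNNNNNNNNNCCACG, is the kind of site through which ATF6 and XBP1 are known to act on chaperone genes. It was found in 21.6% of the matched genes (8 of 37) and in 0.12% of all promoters, counted as for CARE. Here too the genes were chosen by what is known of them, so the share is a description only. Of those 8, 0 were called in limma, against 9.77% of all tested genes called higher and 3.51% lower. A log2 fold change above 0 was found in 5 of the 8 and in 69.5% of all tested genes. The median was 0.05 over the 8 and 0.08 over all tested genes. Without KO3, 1 of the 8 was called, Derl3, higher in KO, against 19.6% of all genes tested. The windows of 4 of them are shown in the same way, from the chaperones Hspa5 and Calr, the isomerase Pdia6 and the ligase Syvn1, to set them beside the CARE sites above.
Hspa5, chr2:34772020-34772048, plus strand: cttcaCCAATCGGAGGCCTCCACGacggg
Calr, chr8:84847070-84847098, plus strand: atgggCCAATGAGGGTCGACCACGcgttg
Pdia6, chr12:17266486-17266514, plus strand: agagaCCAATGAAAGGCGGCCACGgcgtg
Syvn1, chr19:6046527-6046555, plus strand: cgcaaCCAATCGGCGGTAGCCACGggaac
The variant ERSE-II, ATTGGNCCACG, was found in 0.0369% of all promoters and in Dnajb11 and Herpud1. The element UPRE, TGACGTGG, was found in 0.682% of all promoters and in Ube2j1. The 250 bases before the start of Asns, called higher in KO, and of Hspa5, not called, are given with the motif in capitals, Asns on the minus strand and Hspa5 on the plus strand.
Asns, chr6:7693210-7693459, minus strand: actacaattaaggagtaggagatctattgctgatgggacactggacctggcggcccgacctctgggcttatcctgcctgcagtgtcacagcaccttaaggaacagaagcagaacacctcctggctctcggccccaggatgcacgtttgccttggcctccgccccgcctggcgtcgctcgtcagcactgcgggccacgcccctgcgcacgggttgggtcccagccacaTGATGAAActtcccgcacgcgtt
Hspa5, chr2:34771840-34772089, plus strand: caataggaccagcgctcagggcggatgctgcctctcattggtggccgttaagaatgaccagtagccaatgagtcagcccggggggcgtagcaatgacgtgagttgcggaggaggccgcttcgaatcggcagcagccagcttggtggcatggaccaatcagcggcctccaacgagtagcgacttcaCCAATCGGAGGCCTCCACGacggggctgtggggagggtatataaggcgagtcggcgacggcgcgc
Of the genes with none of the 4 motifs, 1 of 21 was called, Erlin1, higher in KO, against 9.77% of all tested genes. The median log2 fold change of the 21 was 0.13, against 0.08 over all tested genes. Without KO3, 8 of the 21 were called, all higher in KO, against 19.6% of all genes tested called higher. Erlin2 and Derl1, also called with all libraries, were among the 9 genes without a matched promoter and stand in none of these groups.

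**Figure D4:**
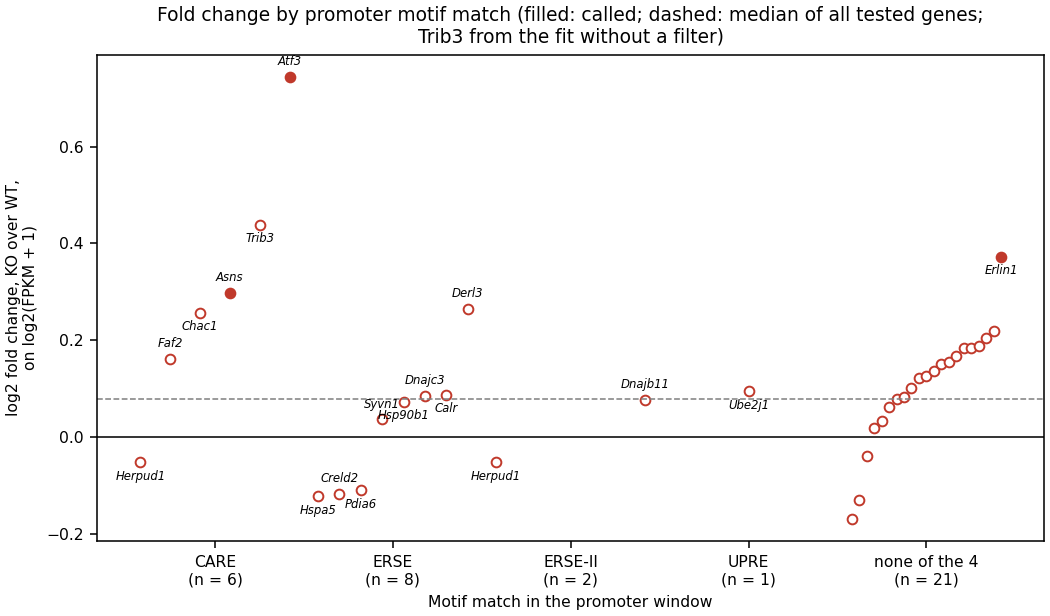
Log2 fold change, KO over WT on log2(FPKM + 1), of the genes with a matched promoter, by motif found in it. Each point is 1 gene, filled points were called, the dashed line is the median of all tested genes at 0.08, and Trib3 comes from a fit without the filter. Genes with CARE lie at −0.05 to 0.75 and genes with ERSE at −0.12 to 0.26, with no test between the motif groups.

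Of the 7 substrate recognition genes of ERAD, 2 were called higher in KO, against 9.77% of all tested genes. Erlin1 and Erlin2 encode the subunits of an ER membrane complex that takes activated IP3 receptors to ERAD. Erlin1 was at 5.19, 4.87, 5.04, 5.48 and 5.31 FPKM in KO1 to KO5, against 3.42, 4.55, 3.64, 3.81 and 3.52 FPKM in WT1 to WT5. The lowest KO value was above the highest WT value, the only one of the 45 genes tested where this was so (1 of 45, 2.22%, against 5.7% of all tested genes). Its mean was 5.18 ± 0.237 FPKM in KO and 3.79 ± 0.449 FPKM in WT (SD, n = 5 each), with a log2 fold change of 0.37 (SE 0.07, adjusted p = 0.0186 in limma; exact permutation p = 0.00794). Without KO2, KO4 or WT1, the adjusted p was 0.0515, 0.0558 or 0.0515 in limma.

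Erlin2 was at 14.3, 12.9, 11.0, 14.2 and 13.5 FPKM in KO, against 11.5, 10.9, 11.1, 11.0 and 10.6 FPKM in WT. All KO libraries but KO3 lay above every WT library (log2 fold change 0.23, SE 0.07, adjusted p = 0.0435 in limma; exact permutation p = 0.0317). Leaving out any library but KO3 ended the call, at adjusted p between 0.0702 and 0.112 in limma. The lectins and mannosidase-like proteins of this group, which read the sugars of misfolded glycoproteins, were Edem1, Edem2, Edem3, Os9 and Erlec1. Their log2 fold changes ran from 0.03 in Os9 to 0.22 in Edem2, and none was called. Edem1 and Edem2 were called higher in KO without KO3 (adjusted p = 0.0189 and 0.00819 in limma).

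Among the ligases and channel proteins, Derl1 rose while the core ligase pair did not pass the test. Derl1, a derlin of the channel through which ERAD substrates leave the ER, was at 20.5, 17.5, 15.1, 21.0 and 22.1 FPKM in KO1 to KO5, against 13.6, 16.4, 14.5, 15.9 and 13.4 FPKM in WT1 to WT5. All KO libraries but KO3 lay above every WT library (log2 fold change 0.35, SE 0.10, adjusted p = 0.0356 in limma; exact permutation p = 0.0238). The call was lost without KO1, KO2, KO4, KO5, WT1, WT3 or WT5, at adjusted p between 0.0626 and 0.0935 in limma. Derl2 and Derl3 had log2 fold changes of 0.19 and 0.26 and were called higher in KO only without KO3 (adjusted p = 0.0294 and 0.0359 in limma).

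Syvn1 (HRD1), the ERAD ubiquitin ligase, was at 8.92, 8.55, 9.69, 10.2 and 9.98 FPKM in KO, against 7.90, 8.61, 10.6, 9.60 and 9.47 FPKM in WT. Sel1l, its partner, was at 41.1, 35.9, 36.4, 39.0 and 35.9 FPKM in KO, against 39.0, 37.6, 40.3, 35.3 and 33.7 FPKM in WT. Both overlapped between groups, with log2 fold changes of 0.04 and 0.02 (95% intervals −0.13 to 0.20 and −0.11 to 0.15), which turned to −0.05 and −0.08 with median-of-ratios scaling. Ubac2, which binds the ligase gp78, was at 13.3, 13.5, 12.5, 12.9 and 13.4 FPKM in KO, against 11.5, 11.4, 12.7, 12.1 and 11.7 FPKM in WT. All KO libraries but KO3 lay above every WT library (log2 fold change 0.14, adjusted p = 0.0765; adjusted p = 0.0436 without KO3, in limma). Herpud1 and Aup1, adaptors of the HRD1 complex, had log2 fold changes of −0.05 and −0.02, and the ligase Rnf139 of 0.17, none called.

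None of the 6 genes of ubiquitin conjugation and extraction was called in limma, 3 were higher at an unadjusted p under 0.05 (25.1% of all tested genes were), and all 6 had a log2 fold change above 0 (69.5% of all tested genes had), with a median of 0.16, but Nploc4 was at −0.03 and Ube2j1 at −0.0013 with median-of-ratios scaling. Ubxn4 (erasin), which brings the extraction ATPase VCP to the ER, was at 16.0, 15.3, 13.0, 16.4 and 14.9 FPKM in KO, against 13.0, 13.9, 14.0, 12.8 and 12.9 FPKM in WT. All KO libraries but KO3 lay above every WT library (log2 fold change 0.17, adjusted p = 0.0900; adjusted p = 0.0123 without KO3, in limma). Ube2j2, an ER-anchored ubiquitin-conjugating enzyme, was at 11.0, 8.35, 9.85, 10.9 and 10.6 FPKM in KO, against 8.88, 8.58, 8.89, 9.18 and 8.36 FPKM in WT, with KO2 below every WT library (log2 fold change 0.18, adjusted p = 0.0962 in limma). Ube2g2 was called higher in KO without KO3 (adjusted p = 0.00394 in limma). Ube2j1, Faf2 and Nploc4 had log2 fold changes between 0.06 and 0.16. Ube2g2, Derl2, Hsp90b1, Syvn1, Ubac2, Pdia3, Pdia6, Manf, Ppp1r15a, Herpud1, Rnf139 and Aup1 overlap other genes, with which reads can be shared.

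**Figure D5:**
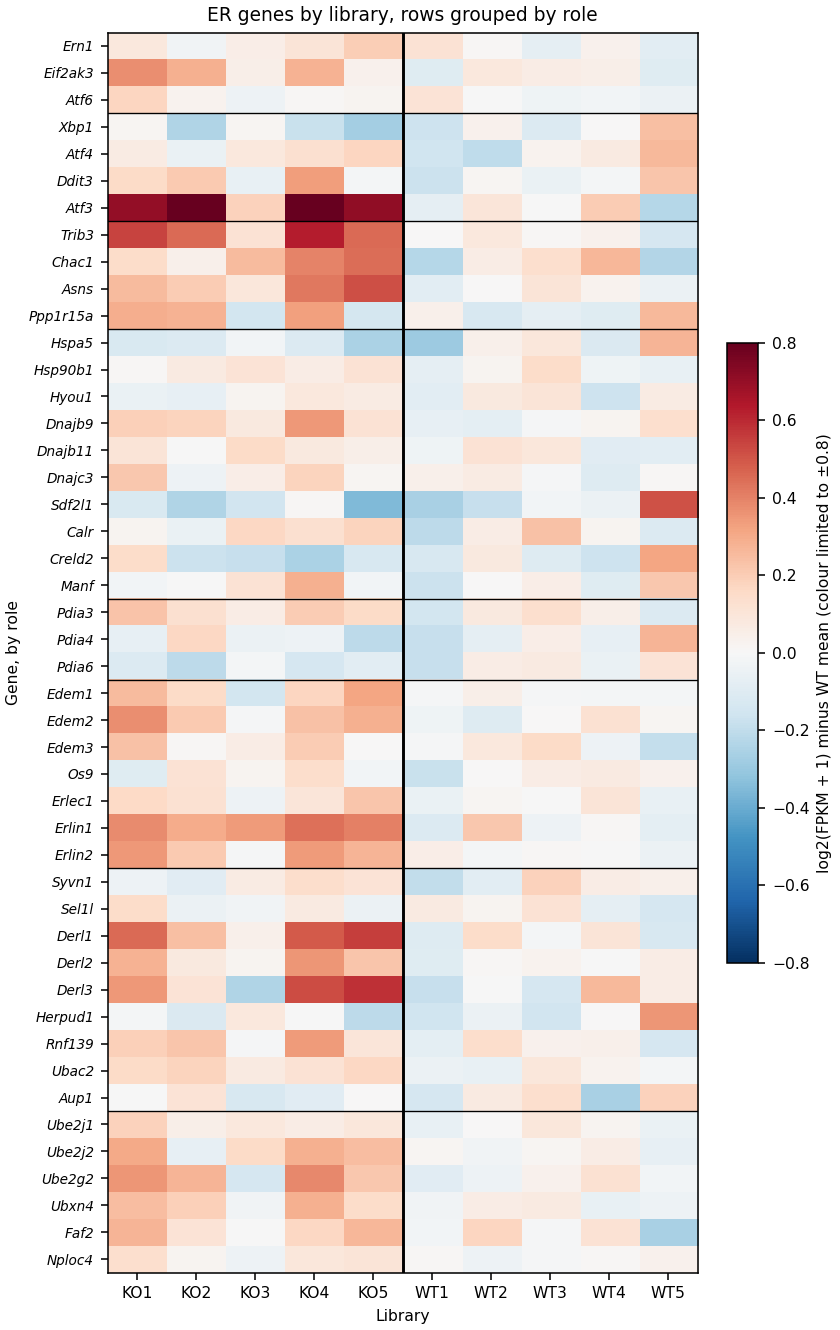
Log2(FPKM + 1) of each of the 46 genes in each library, minus the WT mean of that gene, with KO1 to KO5 left of WT1 to WT5 and rows grouped by role. Red is above and blue below the WT mean, with colour limited to ± 0.8. KO3 is the lowest KO library in 22 of the 46 rows (not counted over all tested genes), and WT5 is red in Hspa5, Sdf2l1, Creld2, Herpud1 and Xbp1.

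Over the 10 libraries some chaperones moved with Hspa5. On log2(FPKM + 1), Sdf2l1 had Pearson r = 0.81 with Hspa5 (permutation p = 0.00542, adjusted over 8 relations 0.0313) and Spearman rho = 0.67 (permutation p = 0.0382, adjusted 0.102). Pdia4 had r = 0.78 (permutation p = 0.00783, adjusted 0.0313) and rho = 0.70 (permutation p = 0.0304, adjusted 0.102). Without WT3 and WT5, the libraries farthest from the median of Hspa5, r was 0.46 for Sdf2l1 and 0.50 for Pdia4, and without WT5 alone it was 0.57 and 0.58. Leaving out the extremes also narrows the range of Hspa5, so how far the relations rest on WT3 and WT5 was not settled. Manf had r = 0.58 and rho = 0.81, while Calr and Hsp90b1 had r of 0.11 and −0.01. WT5 held the highest value of 9 of the 46 genes and the lowest of 13, and these counts were not made over all tested genes.

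Related genes outside the 46 were counted over 5 lists of 101 tested genes. Of these, 16 (15.8%) were called higher in KO and 0 lower, against 9.77% and 3.51% of all tested genes. The lists were chosen with earlier results of these data known, so these shares describe the lists and support no conclusion. Of other genes of ER folding and translocation, 8 of 29 were called higher, with a median log2 fold change of 0.16. Among them were P4hb, a disulfide isomerase (log2 fold change 0.24, adjusted p = 0.0234 in limma), Ssr3, a subunit of the translocon-associated complex (0.32, adjusted p = 0.0274), and Fkbp14 (0.41), Dnajc10 (0.24) and Txndc5 (0.33). Of other ERAD genes, 2 of 25 were called, Vcp (0.25, adjusted p = 0.0299) and Get4 (0.21, adjusted p = 0.0357). Of other ATF4 targets, 3 of 27 were called, Slc7a11, the cystine transporter (0.48, adjusted p = 0.0283), and the tRNA synthetases Mars (0.17, adjusted p = 0.0425) and Eprs (0.19, adjusted p = 0.0437). Without KO3, 36 of the 101 (35.6%) were called higher in KO, against 19.6% of all genes tested. Without KO2, KO4 or WT1, 0 of the 101 were called in limma. With median-of-ratios scaling and all libraries, 5 of the 101 were called, all higher in KO, against 4.19% of all tested genes called higher.

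Of 14 genes of the eIF2 kinases, eIF2 and its regulators, 2 were called higher in KO, Eif2ak2 and Eif2s2, against 9.77% of all tested genes. Eif2ak2 (PKR), an eIF2 kinase activated by double-stranded RNA and induced by interferon, was at 3.76, 4.04, 2.52, 4.10 and 3.99 FPKM in KO, against 1.92, 2.32, 2.09, 2.33 and 1.46 FPKM in WT. KO and WT values did not overlap (log2 fold change 0.63, adjusted p = 0.0186 in limma). The same held, with KO higher, for 5.7% of all tested genes. Creb3l1 (OASIS), an ER-tethered transcription factor known from astrocytes under ER stress, was the 1 call among 6 such factors and their proteases. Here too the share of all tested genes called higher was 9.77%. Creb3l1 was at 3.34, 2.70, 1.57, 3.49 and 3.40 FPKM in KO, against 1.32, 1.44, 2.02, 1.41 and 1.17 FPKM in WT. All KO libraries but KO3 lay above every WT library (log2 fold change 0.64, adjusted p = 0.0241 in limma).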

How the data were processed

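Total RNA of motor cortex was made into NEBNext Ultra libraries, per the labels' protocols. The authors deposited FPKM per gene, with gene identifiers, coordinates and gene lengths, per the file headers. Build mm10 and the tool DESeq2 appear in the submitters' processing notes without a stated use, and no aligner is named in the sources used here. FPKM times gene length gave whole fragments in 100% of values, within 0.02, at 22968013 to 27567361 fragments per KO library and 22793058 to 28827871 per WT library. No 2 libraries agreed within sampling noise.

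Groups came from the sample titles. Genotypes were compared by limma 3.58.1 in R 4.3.3 (lmFit, eBayes with a trend), with no other term, on log2(FPKM + 1). The 14497 genes averaging 0.5 FPKM or more over the 10 libraries entered the fit. P-values were two-sided, and p was adjusted by Benjamini-Hochberg. The procedure was tested on simulated data with changes larger than those of Erlin1, Erlin2, Derl1 and Asns. That test therefore does not speak for calls of their size. Exact permutation tests used all 252 assignments of libraries, and correlations used 100000 permutations.

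Genes given library by library are those called, those whose groups do not overlap, the 2 of lowest p in each role, and the sensors, transcription factors and main chaperones and ligases. The members and lists were chosen with earlier results of these data known. Promoters came from RefSeq on GRCm38.p6, and 9 of the 46 genes had none in the table used. Alternatives covered the pseudocount, filter, scaling, model, replicate block, olfactory bulb level and each library left out, and 2 (median-of-ratios scaling without KO3, and a term for libraries with over 1 FPKM of Ddx3y) were chosen after seeing the data. Same-numbered libraries also share that split, but the labels name no shared animal, litter or day, so the block is an alternative.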

Additional observations from a re-analysis of the deposited data

Results flagged for a closer look

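Of 110 groups of 5 libraries examined, 7 had a library far from the other 4, where chance flags about 1 in 20 groups. WT5 stood apart in 2 of them and KO3 in 0. In WT5, Sdf2l1 was at 17.6 FPKM, against 9.92 to 11.8 FPKM in the other WT libraries, and Herpud1 was at 19.6 FPKM, against 13.4 to 15.2 FPKM. Atf6 was at 18.0 FPKM in WT1, against 16.0 to 16.6 FPKM in the other WT libraries. Edem1 was at 3.59 FPKM in WT2, against 3.40 to 3.42 FPKM. In KO1, Creld2 was at 8.08 FPKM, against 5.88 to 6.51 FPKM in the other KO libraries, and Ube2j1 was at 33.5 FPKM, against 30.4 to 31.3 FPKM. Averaged over the ERAD ligase and channel genes, WT1 differed from the WT mean by −0.10 on log2(FPKM + 1), against 0.02 to 0.03 in the other WT libraries.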

How the results depend on the processing

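Of the 45 genes, 5 were called in limma. The count was 2 without a filter, 2 with median-of-ratios scaling, 3 with quantile normalization, 12 with library weights, 2 with the replicate block and 0 with the olfactory bulb covariate. It was 8 with median-of-ratios scaling and KO3 left out, with 6 higher and 2, Xbp1 and Pdia6, lower in KO. Of all 14522 genes tested in that setting, 1289 were called higher and 1660 lower. Leaving out 1 library gave 0 to 14. Of all genes, 1926 were called, against 465 without a filter, 3557 with library weights, 1271 with the replicate block, 0 with the bulb covariate, 1259 with that covariate and KO3 left out, 2949 with median-of-ratios scaling and KO3 left out, and 2 to 3769 with 1 library left out. Of the 101 other pathway genes, 16 were called, against 2 without a filter, 5 with median-of-ratios scaling, 7 with quantile normalization, 27 with library weights, 6 with the replicate block, 0 with the bulb covariate, 9 with that covariate and KO3 left out, and 0 to 36 with 1 library left out. The causes of these differences were not tested. The replicate numbers share only a number in the labels, and same-numbered KO and WT libraries correlated at −0.06 to 0.14. Under the replicate block, Atf3 and Erlin1 were called, and the adjusted p was 0.0559 for Asns, 0.0592 for Derl1 and 0.0612 for Erlin2. A term for the Y-linked split gave 5, 2060 and 17 calls among the 45 genes, all genes and other pathway genes.

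With median-of-ratios scaling, r with Hspa5 was 0.46 for Hsp90b1 and 0.39 for Dnajb11, both turned in sign. It was 0.72 for Hyou1, 0.73 for Creld2 and 0.72 for Manf, now past the threshold (adjusted permutation p = 0.0290 for each). For rho the adjusted permutation p was 0.147 for Hyou1, 0.166 for Creld2 and 0.129 for Manf, not past it. Without WT3 and WT5, their r in this scaling was 0.44, 0.41 and 0.40. Of the 45 genes, 13 turned in sign with median-of-ratios scaling. Among the genes given library by library, 7 turned under some alternative. With median-of-ratios scaling the values were −0.055 for Atf6, −0.016 for Atf4, −0.025 for Hsp90b1, −0.011 for Calr, −0.053 for Syvn1 and −0.077 for Sel1l. With that scaling and KO3 left out they were −0.053 for Atf6, −0.036 for Atf4, −0.052 for Hsp90b1, −0.049 for Calr, −0.078 for Syvn1 and −0.084 for Sel1l. With quantile normalization they were −0.039 for Ern1, −0.029 for Atf6, −0.043 for Syvn1 and −0.022 for Sel1l. With the bulb covariate they were −0.037 for Syvn1 and −0.020 for Sel1l, and with KO3 also left out −0.0092 for Calr, −0.042 for Syvn1 and −0.010 for Sel1l. Leaving out 1 library gave −0.013 (without WT1) to 0.082 for Syvn1 and −0.015 (without WT5) to 0.048 for Sel1l. Atf3 and Trib3 rest on few fragments, 3 to 90 and 1 to 36 per library, and how far counting limits them was not tested.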
